A study of Rattus norvegicus with 14 samples.

Results

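The genes described here are 42 genes of the amino acid stress response and of cytosolic tRNA charging, given by name. Of these, 41 were found by symbol among the 16816 rows of the gene count table and 1, Vldlr2, was not. All 41 passed the filter on low counts in every comparison. RNA had been sequenced from PCCL3 cells, an established rat thyroid follicular cell line, in 4 groups of 3 libraries. PPFP cells stably carry a myc-tagged PAX8-PPARG fusion protein, an oncoprotein of follicular thyroid carcinoma that joins the thyroid transcription factor PAX8 to the nuclear receptor PPARG. EV cells carry the empty vector. Cells of each line received pioglitazone, a thiazolidinedione drug that activates PPARG, at 1 μM for 16 hours or its vehicle DMSO alone, which is called without pioglitazone here. The labels give no separate culture or batch beyond the replicate number, and the study's methods describe 3 independent experiments. Each construct is represented by 1 stably transfected line, so that the effect of PPFP and any other difference between both lines cannot be told apart. Whether a line is a single clone is not given in the sources used here.

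When amino acids run short, uncharged tRNA activates the kinase GCN2, which phosphorylates the translation factor eIF2α; other stresses do the same through the kinases PERK, PKR and HRI. General translation then slows while the transcription factor ATF4 is made more efficiently, and ATF4, paired with C/EBP proteins, binds C/EBP-ATF response elements and induces genes for amino acid synthesis, amino acid import and tRNA charging. A tRNA synthetase joins one kind of amino acid to its tRNA. The amount of Atf4 mRNA is thus only part of the control of this pathway, and neither protein nor phosphorylation was measured in these libraries. For the thyroid follicular cell, which secretes large amounts of thyroglobulin, amino acid supply and tRNA charging feed the making of that protein.

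The letters of the C/EBP-ATF response element, TGATGNAA, were searched for on both strands in the 250 bases before the start of each gene, in the RefSeq promoters of the rat build GRCr8, because ATF4 binds this element. A promoter was matched for 37 of the 42 genes, and 11 of these (29.7%) held the letters, against 1139 of all 33469 promoters (3.40%). By role, 5 of 11 promoters of the synthetases of the list held them (45.5%), 3 of 7 of the transporters (42.9%), 1 of 4 of the stress effectors, 1 of 6 of the regulators (16.7%) and 1 of 9 of the synthesis enzymes (11.1%). Outside the list they were found in 4 of 10 promoters of other ATF4-linked genes (40%), 1 of 14 of ER chaperones and unfolded protein response genes (7.14%) and 1 of 16 of eIF2α kinases and feedback genes (6.25%), and in none of 9 promoters of other cytosolic synthetases and their scaffold proteins, 16 of mitochondrial synthetases, 9 of folate and one-carbon enzymes and 17 of other amino acid transporters. The stretches of all 11 genes are printed 5′ to 3′ on the strand of the gene with the matched letters in capitals, to show where the letters lie. They lie at chr19:55908354-55908393 (Aars, plus strand), chr17:15193653-15193692 (Iars, minus strand), chr7:65023754-65023786 (Mars, minus strand), chr18:60275783-60275812 (Nars, minus strand), chr2:62114806-62114845 (Tars, minus strand), chr3:161275534-161275570 (Trib3, minus strand), chr7:129681520-129681559 (Slc38a1, minus strand), chr3:126795948-126795987 (Chac1, plus strand), chr12:11664442-11664481 (Slc7a1, plus strand), chr14:98761774-98761812 (Slc1a4, minus strand) and chr10:106420920-106420959 (Pycr1, minus strand).
Aars: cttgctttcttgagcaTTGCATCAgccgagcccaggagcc
Iars: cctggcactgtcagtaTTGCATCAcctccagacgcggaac
Mars: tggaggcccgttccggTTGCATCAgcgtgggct
Nars: gctgccctaggtgatcTGATGCAAcgcttc
Tars: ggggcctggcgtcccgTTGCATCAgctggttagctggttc
Trib3: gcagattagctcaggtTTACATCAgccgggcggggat
Slc38a1: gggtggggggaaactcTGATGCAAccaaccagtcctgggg
Chac1: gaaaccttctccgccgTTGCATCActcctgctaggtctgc
Slc7a1: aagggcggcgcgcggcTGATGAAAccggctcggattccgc
Slc1a4: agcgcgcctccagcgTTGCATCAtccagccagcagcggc
Pycr1: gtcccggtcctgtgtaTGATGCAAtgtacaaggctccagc

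In Nars, Slc38a1 and Pycr1 the letters read TGATGCAA and in Slc7a1 TGATGAAA on the strand of the gene, and in the other 7 genes they lie on the opposite strand and appear as their reverse complement. The match ended 7 bases before the start in Nars, 10 in Mars, 14 in Trib3, 17 in Iars, 20 in Tars and 23 in Slc7a1, and lay farther away in Aars (105), Pycr1 (124), Slc38a1 (135), Chac1 (160) and Slc1a4 (228). With the 50 bases after the start included, the letters were also found in Cars and Yars. They were then in 13 of the 37 promoters, 7 of 11 of the synthetases of the list, and 1332 of all 33469. A match is a description of the letters and shows no binding.

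The libraries held between 23724703 and 35240176 counts, and the 41 genes took 0.737% to 1.38% of them. Pparg, the rat gene whose human counterpart forms part of the fusion, had 1.23 to 2.81 CPM in the 6 EV libraries and 46.7 to 61.2 CPM in the 6 PPFP libraries, so that no library went against its construct label. The drug label was not checked by it. CPM are counts scaled by library size and by the trimmed mean of M values (TMM) over all 12 libraries. The thyroid markers Tg (6647 to 12012 CPM) and Pax8 (539.7 to 796 CPM) were high throughout. The C cell marker Calca, the fibroblast marker Dcn, the adipocyte marker Lep and the endothelial marker Cdh5 had no count in any library, and the immune marker Ptprc at most 1. Counts were present in every library for the immune markers Cd68 (0.378 to 0.79 CPM in EV cells and 0.807 to 1.31 CPM in PPFP cells) and Cd3e (up to 6 counts), the fibroblast marker Col1a1 (up to 3.55 CPM) and the adipocyte marker Adipoq (up to 4.62 CPM). Their part in the differences between the lines was not tested. Replicates 2 and 3 of PPFP cells with pioglitazone were nearly alike: their counts differed by a mean chi-square of 1.75 per gene over 9241 genes, where counting noise alone gives 1, against 19.2 to 122 for the other 11 pairs of replicates within a group. They differed beyond counting noise and were kept as separate libraries, and results that rest on them are also given with both summed into 1 library or with 1 of them left out.

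The amino acid stress genes varied far more between replicates of the same group than other genes did. The median ratio of the highest to the lowest replicate was 1.63 to 2.03 for the 41 genes (CPM plus 0.5) and 1.16 to 1.22 for all 10482 genes tested. They also varied together. In PPFP cells replicate 1 was the lowest library for 38 of 41 genes without pioglitazone and for 39 of 41 with it, and its median log2 deviation from the group mean was -0.51 and -0.67. In EV cells replicate 2 was the highest for 39 of 41 genes in both groups, at 0.49 and 0.38. The same shares over all genes tested were 42.8% and 44.2% for replicate 1 of PPFP cells, and 37.1% and 38.0% for replicate 2 of EV cells. The widest spread was that of Slc7a11, which encodes the cystine/glutamate exchanger, at 2.31, 80.1 and 80.5 CPM in PPFP cells without pioglitazone and 13.4, 53.7 and 3.97 CPM in EV cells without it. Trib3, a pseudokinase induced by ATF4, had 5.10, 54.4 and 60.3 CPM and Chac1, which degrades glutathione, 2.20, 49.8 and 59.99 CPM in PPFP cells without pioglitazone. Replicate 1 was far below the other two PPFP libraries for all 3 genes. The labels do not say what differed between these cultures, and its part in the results was not tested.

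**Figure D1:**
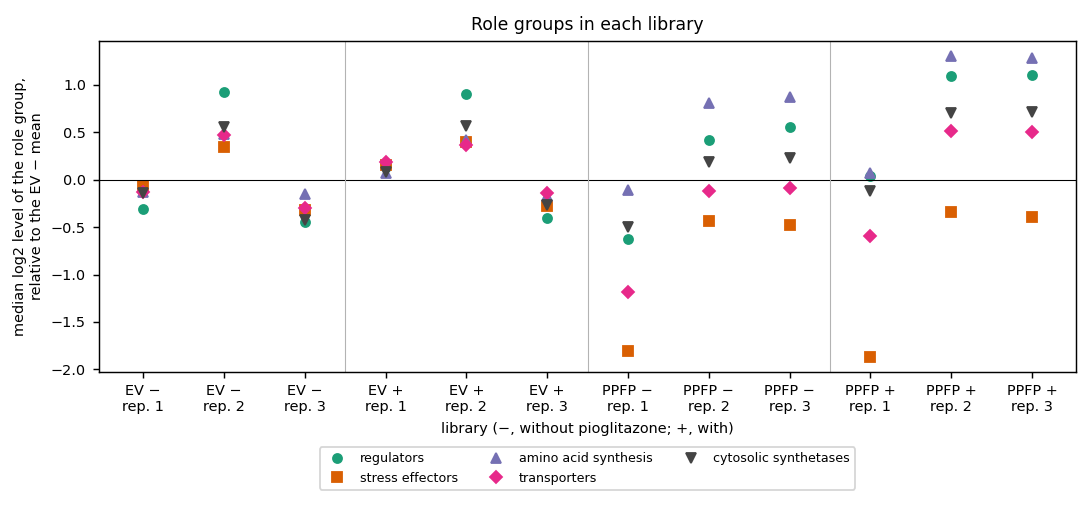
Median log2 level of each role group (CPM plus 0.5) in every library, relative to the mean of EV cells without pioglitazone; each symbol is 1 role group in 1 library. Replicate 1 of PPFP cells lies below replicates 2 and 3 for every role group with and without pioglitazone, and replicate 2 of EV cells lies above its partners.

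The first comparison asked how these genes differ between PPFP and EV cells without pioglitazone. Of the 10 enzymes of amino acid synthesis, 5 were called higher in PPFP cells (Phgdh, Psph, Shmt2, Cbs and Cth) and 0 lower, while Stc2, Slc38a1 and Atf3 were lower. Of the 7 regulators only Atf3 passed the test, and of the 12 synthetases only Gars. In all, 7 of the 41 genes were higher and 3 lower at an adjusted p under 0.05, while 22.0% of all genes tested were called higher and 23.1% lower. A fold change above 2 was reached by 6 members, at 14.6% of all genes. All 3 libraries of one line lay above or below all 3 of the other for 15 of the 41 genes (6 higher, 9 lower) and for 56.0% of all genes. The median log2 fold change of the members was -0.07, against 0.0016 over all genes, and it was above 0 without EV replicate 2 (0.36) or without PPFP replicate 1 (0.21). In bulk RNA, fewer cells that carry a transcript and less of it per cell cannot be told apart.

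Serine synthesis from glycolysis takes 3 enzymes in turn, encoded by Phgdh, Psat1 and Psph. The last of them, Psph, had 25.6, 44.2 and 27.7 CPM in the EV libraries and 167, 168 and 189 CPM in the PPFP libraries. It was 5.45-fold higher in PPFP cells, with a log2 fold change of 2.44 ± 0.21 (SE) and an adjusted p of 9.96e-05, and no library of one line reached the range of the other. Phgdh, the entry enzyme, went from 349, 414 and 383 CPM in EV cells to 695, 723 and 725 CPM in PPFP cells, 1.90-fold higher (0.93 ± 0.09, adjusted p = 0.000173). Psat1, which encodes the middle step, had 1480.5, 1935 and 1686 CPM in EV cells and 1367, 1369 and 1373 CPM in PPFP cells and was not called (-0.29 ± 0.11, adjusted p = 0.0623), although all PPFP libraries lay below the EV range. Within this pathway the first and last enzymes were thus higher in PPFP cells and the middle one was not.

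Shmt2 makes glycine and a one-carbon unit from serine in mitochondria. It had 343, 384 and 366 CPM in EV cells and 570.2, 578 and 593 CPM in PPFP cells, an increase of 1.62-fold (0.69 ± 0.08, adjusted p = 0.000366). Cbs and Cth encode both steps of transsulfuration, which turns homocysteine and serine into cysteine. Cbs stood at 20.2, 21.96 and 21.3 CPM in EV and 49.2, 55.5 and 48.8 CPM in PPFP cells, and had the smallest adjusted p of all members (1.29 ± 0.09, 4.08e-05). Cth had 2.58, 5.79 and 3.39 CPM in EV and 3.999, 13.3 and 13.4 CPM in PPFP cells. Its first PPFP library lay among the EV libraries, and its call (1.41 ± 0.49, adjusted p = 0.0483) was lost without replicate 1 or 3 of EV cells and without replicate 2 or 3 of PPFP cells (adjusted p up to 0.15). The other 4 genes of this role group were not called, at log2 values from -0.95 (Pycr1, of proline synthesis) to 0.56 (Mthfd2, of mitochondrial folate metabolism). Asns, which makes asparagine and is the usual reporter of ATF4 activity, had 46.5, 99.1 and 24.8 CPM in EV cells and 31.4, 83.6 and 85.95 CPM in PPFP cells, and the groups overlapped (0.25 ± 0.54, adjusted p = 0.729).

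Of the transporters, the sodium-coupled neutral amino acid transporters Slc38a1 and Slc38a2 were called in opposite directions. Slc38a2 was 1.79-fold higher in PPFP cells (0.84 ± 0.17, adjusted p = 0.00475), with 65.3, 81.9 and 55.6 CPM in EV and 102, 127 and 129 CPM in PPFP libraries. Slc38a1 was scarce in both lines. It had 3.62, 2.08 and 2.09 CPM in EV cells and 0.624, 0.333 and 0.802 CPM in PPFP cells, 4.39-fold lower in PPFP cells (-2.13 ± 0.38, adjusted p = 0.00313), on 9 to 19 counts per PPFP library. None of the other 6 transporters was called. They ranged from -0.93 for Slc1a4, which carries alanine, serine and cysteine, to 1.21 for Slc7a11, whose SE was 1.17.

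Among the regulators, Atf3, a repressor-activator induced by ATF4, was the one gene called. It had 8.30, 22.6 and 8.43 CPM in EV cells and 1.36, 3.62 and 4.43 CPM in PPFP cells, 4.14-fold lower in PPFP cells (-2.05 ± 0.53, adjusted p = 0.0163), and without EV replicate 2, its highest library, the difference was -1.39 with an adjusted p of 0.0419. Atf4 itself had 218, 374 and 180.3 CPM in EV and 147, 329 and 359.8 CPM in PPFP cells (0.13 ± 0.38, adjusted p = 0.8). Ddit3, which encodes the proapoptotic factor CHOP, had 17.9, 53.4 and 12.6 CPM in EV and 14.8, 39.4 and 43.5 CPM in PPFP cells (0.24 ± 0.59, adjusted p = 0.77). The lines overlapped for both genes, and the approximate 95% interval of the difference was -0.61 to 0.88 for Atf4 and -0.91 to 1.39 for Ddit3 (from the SE, on the log2 scale). It takes a normal distribution, which makes it too narrow with 3 libraries per group. Cebpg, which encodes a C/EBP partner of ATF4, was at 0.43 ± 0.25 with an adjusted p of 0.195.

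Stc2, which encodes the secreted glycoprotein stanniocalcin 2, was 3.40-fold lower in PPFP cells, at 79.3, 94.7 and 65.2 CPM in EV and 21.4, 23.3 and 24.8 CPM in PPFP libraries (-1.77 ± 0.16, adjusted p = 0.000112). Ddit4, an inhibitor of the growth kinase complex mTORC1, had 628, 657 and 447 CPM in EV and 197, 407 and 406 CPM in PPFP cells without a call (-0.76 ± 0.29, adjusted p = 0.0662), although no PPFP library reached the EV range. With the replicate number as a block across the lines, Ddit4 was called (-0.81 ± 0.27, adjusted p = 0.046), as were Sesn2, a stress-induced inhibitor of mTORC1 signalling (-0.86 ± 0.26, 0.0339), and the transporter genes Slc3a2 (-0.75 ± 0.21, 0.0245) and Slc1a4 (-1.01 ± 0.26, 0.0184), all lower in PPFP cells. The sources used here do not say whether a number marks the same experiment in both lines. Among the 12 synthetases only Gars, for glycine, was called. It had 852, 929 and 1126 CPM in EV and 1419, 1349 and 1396 CPM in PPFP cells, 1.46-fold higher (0.54 ± 0.11, adjusted p = 0.00439). The other 11 lay between -0.41 (Lars, for leucine) and 0.46 (Mars, for methionine; adjusted p = 0.178) and overlapped between the lines.

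**Figure D2:**
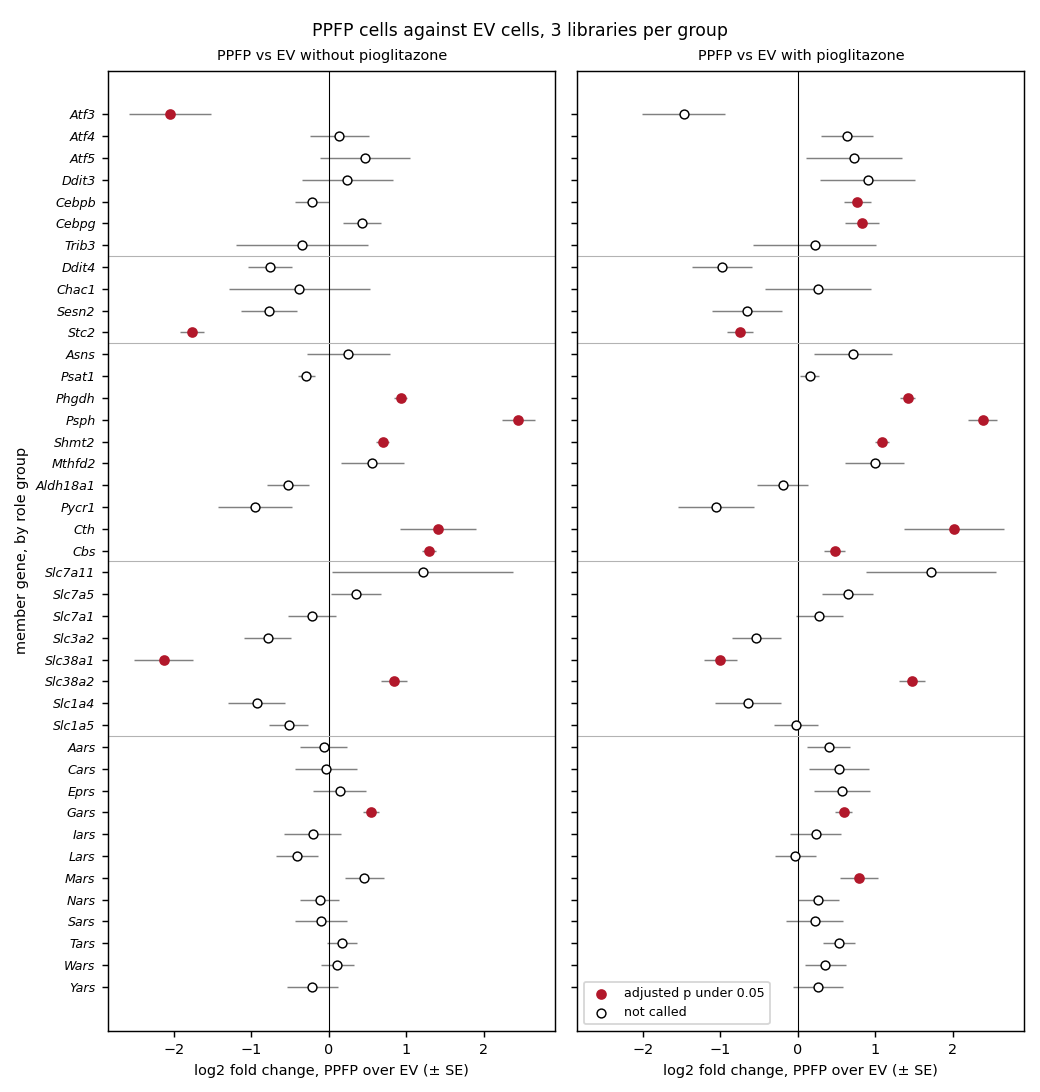
Log2 fold change of each of the 41 genes in PPFP cells against EV cells, without pioglitazone on the left and with it on the right (points, edgeR estimate; bars, SE; filled points, adjusted p under 0.05; 3 libraries per group). Psph, Phgdh, Shmt2, Cth, Cbs and Slc38a2 are higher and Stc2 and Slc38a1 lower in both panels, while most synthetases lie near 0 on the left and right of 0 on the right.

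Both lines were also compared in the presence of pioglitazone, on libraries that the first comparison did not use. Phgdh, Psph, Shmt2, Cbs, Cth and Slc38a2 were called higher in PPFP cells here as well. In all, 10 of 41 genes were called higher and 2 lower, against 26.3% and 26.4% of all genes. Again 6 members exceeded 2-fold (19.7% of all genes), and the groups did not overlap for 13 members (62.9% of all genes). The median of the members was 0.40, against 0.012 over all genes. When replicate 1 of PPFP cells with pioglitazone, the library with low levels of these genes, was left out, 20 genes were called (17 higher, 3 lower), a share close to the 48.7% of all genes called in that fit. Psph was 5.22-fold higher (2.38 ± 0.18, adjusted p = 5.61e-05), at 35.2, 41.1 and 32.8 CPM in EV and 141, 206 and 211 CPM in PPFP cells. For Phgdh, with 377, 420.3 and 378 CPM in EV and 953, 1053 and 1066 CPM in PPFP cells, the difference was 2.67-fold (1.42 ± 0.09, adjusted p = 2.99e-05). Shmt2 differed by 2.11-fold (371, 373 and 376 against 704, 812 and 804 CPM, 1.08 ± 0.09, adjusted p = 8.11e-05) and Slc38a2 by 2.78-fold (73.7, 86.4 and 59.9 against 165, 217 and 217 CPM, 1.48 ± 0.17, adjusted p = 0.000366). These 4 genes did not overlap between the lines. Psat1 did, at 1547, 2071 and 1669 CPM in EV and 1935, 1933 and 1889.6 CPM in PPFP cells, and was not called (0.15 ± 0.12, adjusted p = 0.326).

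Cth was called at 2.01 ± 0.65 (adjusted p = 0.034), but replicate 1 of PPFP cells lay within the EV range (3.40, 6.30 and 3.01 CPM in EV and 3.86, 23.3 and 22.9 CPM in PPFP cells). It was lost without replicate 1 or 3 of EV cells, without replicate 2 or 3 of PPFP cells, and when both of these PPFP libraries were summed (1.70 with an adjusted p of 0.0883). Cbs was 1.39-fold higher in PPFP cells (17.96, 18.2 and 16.9 against 20.03, 27.1 and 25.2 CPM, 0.48 ± 0.13, adjusted p = 0.0203), a call lost in the same 5 settings (with both summed, 0.39 with an adjusted p of 0.0798). Slc38a1 (3.08, 3.10 and 2.33 against 1.17, 1.57 and 1.42 CPM, -1.004 ± 0.21, adjusted p = 0.00603) and Stc2 (85.5, 97.7 and 64.02 against 42.8, 50.8 and 51.3 CPM, -0.74 ± 0.17, adjusted p = 0.00772) were lower. Atf3 had 10.8, 22.4 and 9.73 CPM in EV and 1.70, 7.35 and 5.995 CPM in PPFP cells and just missed the threshold (-1.47 ± 0.53, adjusted p = 0.0514). The block across the lines called Atf3 (-1.58 ± 0.37, 0.0137) and Ddit4 (-1.13 ± 0.34, 0.0362) lower and Tars, for threonine, higher (0.53 ± 0.17, 0.0474).

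The C/EBP genes Cebpb and Cebpg, which encode partners of ATF4, were called with pioglitazone. Cebpb was 1.70-fold higher in PPFP cells, 61.6, 72.9 and 44.9 against 90.1, 101 and 109 CPM (adjusted p = 0.00908). Cebpg differed by 1.77-fold, 53.2, 69.5 and 46.9 against 71.1, 111 and 112 CPM (adjusted p = 0.0159). Its call was lost without replicate 1 of EV cells, without replicate 2 or 3 of PPFP cells (adjusted p up to 0.0665) and with both of these PPFP libraries summed (0.70 with an adjusted p of 0.0526). Atf4 (268, 379.8 and 194 against 252, 514 and 513 CPM, 0.63 ± 0.33, adjusted p = 0.149), Ddit3 (0.90 ± 0.61, 0.251) and Asns (0.71 ± 0.51, 0.272) were not. Gars (0.59 ± 0.11, adjusted p = 0.00403) and Mars (0.79 ± 0.25, 0.0311) were the synthetases called, and Mars was lost without replicate 1 or 3 of EV cells, without replicate 2 or 3 of PPFP cells (adjusted p up to 0.103) and with both of these PPFP libraries summed (0.66 with an adjusted p of 0.0939). The remaining 10 synthetases ranged from -0.03 to 0.57.

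Next, pioglitazone was compared with vehicle in PPFP cells. Most of the members rose by modest amounts when libraries of the same replicate number were compared, and Cbs and Ddit4 fell. The median log2 fold change was 0.55, against 0.012 over all genes, and 39 of the 41 values were above 0. Without regard to the replicate number, 8 genes were called (7 higher, 1 lower), against 14.8% of all genes, and 3 of them exceeded 2-fold, against 2.42%. With the replicate number as a block, so that each library with pioglitazone is set against the library of the same number without it, 36 genes were called higher and 2 lower, against 27.7% and 23.9% of all genes. In that fit Psph, Pycr1 and Gars were not called. The log2 ratio was above 0 in all 3 pairs for 34 of the 41 genes, against 37.1% of all genes, and the median ratios of the pairs were 0.41, 0.58 and 0.52. With pair 1, 2 or 3 left out, the block called 39, 36 and 37 genes, against 47.6%, 46.0% and 41.3% of all genes, so that the count was much the same with only 1 of the nearly alike libraries.

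All 7 regulators rose in the paired comparison. Atf4 went from 147, 329 and 359.8 CPM without pioglitazone to 252, 514 and 513 CPM with it in replicates 1 to 3, log2 ratios of 0.78, 0.64 and 0.51. The block fit gave 0.64 ± 0.04 (adjusted p = 1.05e-12), whereas the fit without the block gave 0.62 ± 0.41 and an adjusted p of 0.39. Replicate 1 with pioglitazone was lower than replicates 2 and 3 without it. For Ddit3, the libraries held 14.8, 39.4 and 43.5 CPM before and 19.5, 70.9 and 74.99 CPM with pioglitazone, 0.73 ± 0.06 with the block (adjusted p = 5.94e-10, and 0.462 without). Cebpb was the regulator that also passed without the block (49.6, 53.4 and 54.5 against 90.1, 101 and 109 CPM, 0.93 ± 0.09, adjusted p = 0.00187). Its replicates were tight, and pioglitazone raised it 1.91-fold. Atf3 (0.67 ± 0.14, block-adjusted p = 0.000287) and Cebpg (0.48 ± 0.04, 9.39e-10) rose with the block only.

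Stc2 rose in both fits. It had 21.4, 23.3 and 24.8 CPM without and 42.8, 50.8 and 51.3 CPM with pioglitazone, 2.09-fold (1.06 ± 0.11, adjusted p = 0.00192). Its log2 ratios, 1.00, 1.13 and 1.05, were alike in the 3 pairs, and its level stayed below that of EV cells. Chac1 had ratios of 2.43, 0.97 and 0.58, of which the first came from a library at 2.20 CPM without the drug. Ddit4 moved the other way, from 197, 407 and 406 to 117, 345 and 348 CPM (-0.39 ± 0.06 with the block, adjusted p = 1.12e-05, and 0.726 without).

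In amino acid synthesis, Asns rose from 31.4, 83.6 and 85.95 to 46.7, 134 and 131 CPM (0.63 ± 0.04 with the block, adjusted p = 1.28e-11, and 0.484 without). Psat1 had very even values, 1367, 1369 and 1373 CPM without and 1935, 1933 and 1889.6 CPM with pioglitazone, and rose 1.40-fold in both fits (0.49 ± 0.04, adjusted p = 0.000732 without the block). Phgdh rose 1.44-fold (695, 723 and 725 against 953, 1053 and 1066 CPM, 0.52 ± 0.06, adjusted p = 0.00402) and Shmt2 1.34-fold (0.42 ± 0.07, 0.0135). Without the block, the call of Shmt2 was lost without replicate 2 or 3 of either group (adjusted p up to 0.0627) and with the nearly alike libraries summed (0.38 with an adjusted p of 0.062), and it held with the block (0.41 ± 0.04, adjusted p = 4.28e-09). Psph did not pass in either fit (-0.25, 0.29 and 0.16 in the pairs, block-adjusted p = 0.314). Cbs fell by 1.08 on the log2 scale, from 49.2, 55.5 and 48.8 to 20.03, 27.1 and 25.2 CPM (-1.08 ± 0.13, adjusted p = 0.00367), while Cth, the next enzyme of transsulfuration, had ratios of -0.05, 0.80 and 0.77 (0.67 ± 0.10 with the block, adjusted p = 5.43e-06, and 0.58 without). The PPFP libraries without pioglitazone enter both this comparison and that of the lines, so that their values are given side by side and no relation between both is drawn.

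All 8 transporters rose with the block. Slc38a2 went from 102, 127 and 129 to 165, 217 and 217 CPM, 1.68-fold (0.74 ± 0.15, adjusted p = 0.0211 without the block). That call was lost without replicate 2 or 3 of either group (adjusted p up to 0.0873) and with the nearly alike libraries summed (0.68 with an adjusted p of 0.0803), and it held with the block (0.74 ± 0.04, adjusted p = 4.17e-14). Slc38a1 went from 0.624, 0.333 and 0.802 to 1.17, 1.57 and 1.42 CPM (1.26 ± 0.32, adjusted p = 0.0485), a call that was lost without the block whenever any one library was left out (adjusted p up to 0.166) and that held with the block (1.25 ± 0.27, 0.000453). Its counts without pioglitazone, 9 to 19, make the size of this change imprecise. The pair ratios of Slc7a11 were 2.80, 0.59 and 0.70 and those of Slc7a5, the large neutral amino acid carrier LAT1, 0.09, 0.61 and 0.45. Its partner chain Slc3a2 had ratios of 0.23, 0.46 and 0.42.

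Most of the synthetases rose, by amounts that differed. With the block, 11 of 12 were called higher, at log2 fold changes of 0.30 (Wars, for tryptophan) to 0.69 (Cars, for cysteine), and the SE of each was under 0.05. Without the block none of the 12 was called (1 at an unadjusted p under 0.05), and in 11 of them replicate 1 was the low library of both groups. Mars had 247, 375 and 373 CPM without and 330.5, 523 and 515 CPM with pioglitazone, ratios of 0.42, 0.48 and 0.47 (0.46 ± 0.03 with the block, adjusted p = 1.96e-11, and 0.265 without). The exception was Gars, with 1419, 1349 and 1396 CPM without and 1435, 1378 and 1381 CPM with the drug (0.01 ± 0.04 with the block, adjusted p = 0.789). Its approximate 95% interval, again from a normal distribution and too narrow, was -0.06 to 0.08. Gars was also the synthetase whose replicate 1 was not the low library.

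**Figure D3:**
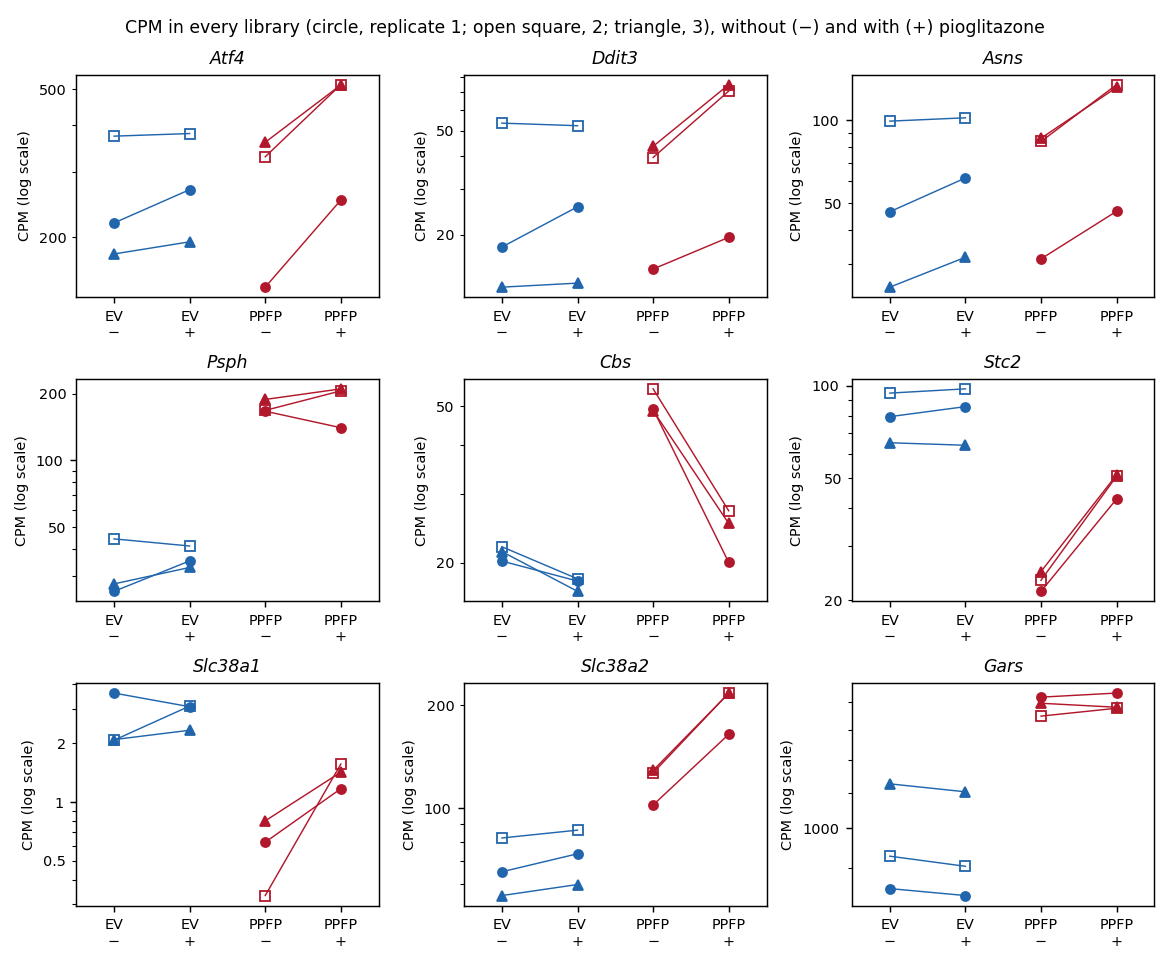
CPM on a log axis in all 12 libraries for 9 of the genes; lines join libraries of the same replicate number within EV cells (blue) and PPFP cells (red), without (−) and with (+) pioglitazone. In PPFP cells each line for Atf4, Ddit3, Asns, Stc2, Slc38a1 and Slc38a2 rises and each line for Cbs falls, while Gars stays between 1349 and 1435 CPM in PPFP cells.

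In EV cells, which have little Pparg, none of the 41 genes was called with the replicate number ignored (0% of all genes by edgeR, 0 members by DESeq2, and 1 member at an unadjusted p under 0.05 by edgeR). Nor was any called with the number used as a block (0.00986% of all genes), where 20 members had an unadjusted p under 0.05 and the smallest adjusted p was 0.165, for Atf5. The median was 0.12, against -0.0018 over all genes, and 37 of the 41 values were above 0. The pairs differed: the median ratios were 0.25, -0.00028 and 0.14 in pairs 1 to 3, with 37, 20 and 33 genes above 0. All 3 pairs were above 0 for 14 of 41 genes, against 13.9% of all genes. The count depended on pair 2, which holds the EV libraries with the highest levels of these genes: with pair 2 left out, the block called 30 of the 41 genes (29 higher, 1 lower), against 2.24% of all genes in that fit, and with pair 1 or pair 3 left out it called 0 and 1. Without the block, the median was 0.43 when EV replicate 2 without pioglitazone was left out and -0.12 when EV replicate 2 with it was.

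Atf4 had 218, 374 and 180.3 CPM without and 268, 379.8 and 194 CPM with pioglitazone in EV cells, ratios of 0.30, 0.02 and 0.11. Pair 2 was lowest for this gene, as for Asns and Mars. For Asns, which had 61.7, 102 and 31.8 CPM with pioglitazone, they were 0.41, 0.04 and 0.36, and for Mars 0.23, 0.07 and 0.15. Stc2, Phgdh and Slc38a2 had ratios of 0.11, 0.05 and -0.03, of 0.11, 0.02 and -0.02 and of 0.17, 0.08 and 0.11, of which Stc2 and Phgdh were lowest in pair 3. Cbs was lower with pioglitazone in all 3 EV pairs as well (-0.17, -0.27 and -0.34, with 17.96, 18.2 and 16.9 CPM with the drug), without overlap between the groups but without a call (-0.26 ± 0.09, block-adjusted p = 0.546).

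**Figure D4:**
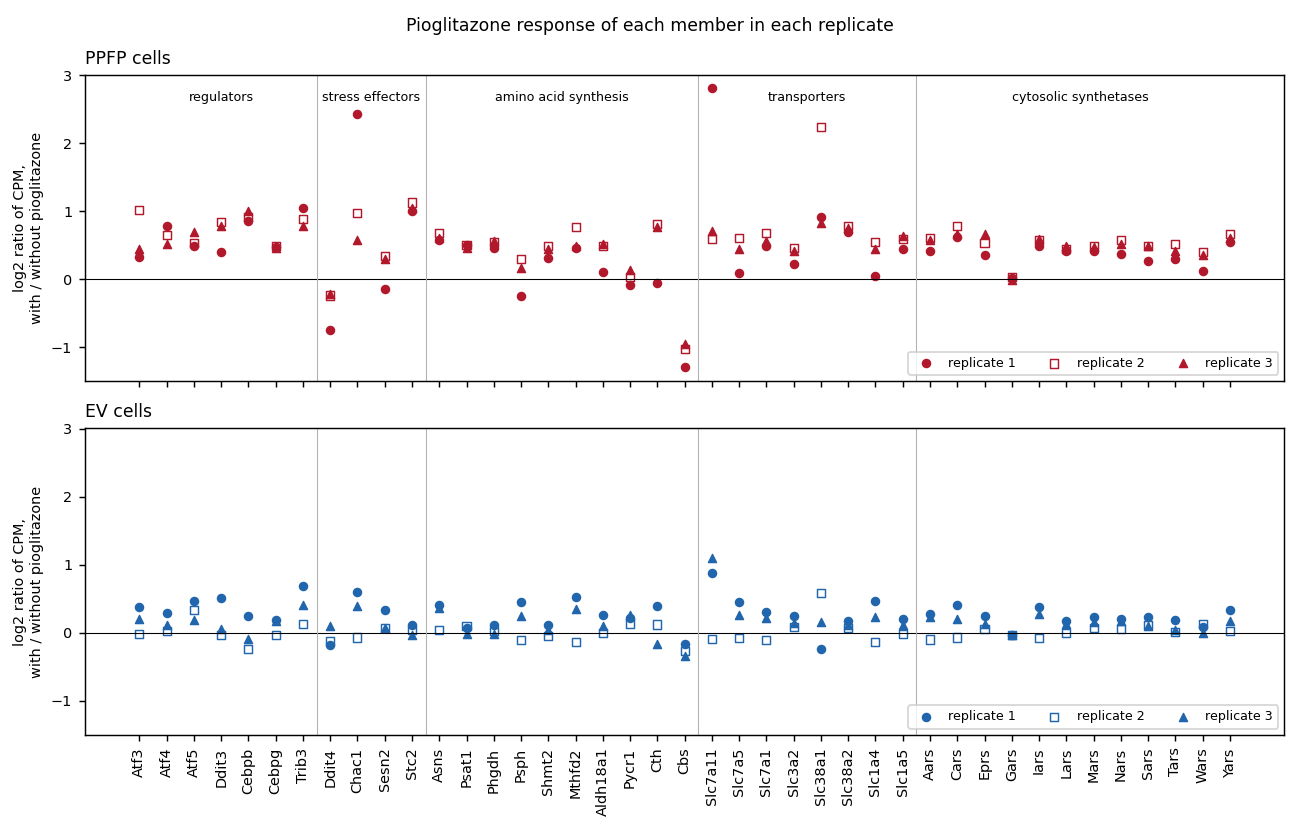
Log2 ratio of CPM with over without pioglitazone for each gene in each replicate pair, in PPFP cells (top) and EV cells (bottom), ordered by role group. The medians of the 3 PPFP pairs are 0.41, 0.58 and 0.52, with Cbs and Ddit4 below 0 and Gars near it, and those of the EV pairs are 0.25, -0.00028 and 0.14.

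Whether pioglitazone acted differently in both lines was tested as the difference of the responses in 1 fit of the 12 libraries. Without the block, Cbs was the member called, at -0.83 ± 0.15 (adjusted p = 0.0153), against 2.64% of all genes. It fell more in PPFP than in EV cells. Without replicate 2 of PPFP cells without pioglitazone the difference was -0.77 with an adjusted p of 0.0557. With the replicate number as a block within each line, 30 members were called with a higher response in PPFP than in EV cells and 2, Cbs and Ddit4, with a lower one, against 17.2% and 17.1% of all genes. The members called higher included all 7 regulators, 11 of 12 synthetases, 5 of 8 transporters, 5 of 10 synthesis enzymes and 2 of 4 stress effectors. The difference was 0.49 ± 0.07 for Atf4 (block-adjusted p = 0.000177, and 0.859 without the block), 1.01 ± 0.06 for Stc2 (5.54e-08 and 0.0593), 0.61 ± 0.05 for Slc38a2 (6.11e-07 and 0.321) and 0.30 ± 0.05 for Mars (0.000356 and 0.874). Leaving out PPFP pair 1, 2 or 3 from the blocked fit gave 33, 26 and 28 called members, against 30.4%, 26.1% and 27.6% of all genes. Leaving out EV pair 1, 2 or 3 gave 34, 28 and 27, against 28.4%, 32.8% and 28.5% of all genes, so that this count did not rest on EV pair 2.

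To set the response of PPFP cells to pioglitazone beside that of related genes, further lists were described in the same way. Their counts with the block are to be read against the 27.7% of all genes called higher and the 23.9% called lower in that fit. For the other 11 cytosolic synthetases and scaffold proteins, those not among the 42, the median log2 fold change was 0.11, with 7 called higher and 1 lower with the block, against 0.49 for the 12 on the list. For the 15 mitochondrial synthetases tested it was 0.095, with 5 higher, near the share of all genes called higher, and 1 lower. Of the 10 folate and one-carbon enzymes tested, 7 were higher and 0 lower with the block (median 0.21), and of the 12 other amino acid transporters 3 were higher and 5 lower (median -0.08). The list with the median most like that of the members was that of 10 other ATF4-linked genes (median 0.49, 8 higher with the block, 0 without it). Among them Fgf21, which encodes a secreted stress hormone, had 0, 60 and 51 counts without and 71, 599 and 672 counts with pioglitazone in PPFP cells (adjusted p = 0.0896, and 4.74e-15 with the block), and 1 to 5 counts in each EV library. Whether ATF4 or the fusion protein acts on Fgf21 here was not tested. Nupr1, a stress-induced transcriptional regulator, had 1.94, 4.92 and 0.754 CPM in EV and 1.83, 30.4 and 27.5 CPM in PPFP cells without pioglitazone and was called higher in PPFP cells (2.98 ± 0.99, adjusted p = 0.0409), although replicate 1 of PPFP cells lay within the EV range. It rose with pioglitazone in the blocked fit (0.99 ± 0.09, 4.44e-09, and 0.601 without the block), again with a low replicate 1 (7.98, 52.03 and 53.6 CPM with the drug). Atf2, a stress-activated partner of bZIP factors, was lower in PPFP cells (-0.37 ± 0.09, adjusted p = 0.0144).

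Genes of the endoplasmic reticulum (ER) stress response, in which PERK acts, had a lower median than the members. The activity of PERK itself was not tested. Of 17 ER chaperones and unfolded protein response genes, 9 were lower and 5 higher with the block in PPFP cells given pioglitazone, against 23.9% and 27.7% of all genes (median log2 -0.15). Xbp1, a master factor of that response, fell by 0.43 on the log2 scale (-0.43 ± 0.08, adjusted p = 0.0175). Herpud1 had the largest rise of the list (0.39, block-adjusted p = 1.05e-08). Hsp90b1, an ER chaperone, was higher in PPFP than in EV cells without pioglitazone (1.29 ± 0.18, 0.00102) and had -0.32 ± 0.10 with the drug (0.0967, and 2.85e-08 with the block). For 15 genes of eIF2α kinases, phosphatases and exchange factors the median was 0.036, where 5 were called higher, near the 27.7% of all genes, and 0 lower with the block. The largest rises were those of the phosphatase subunit genes Ppp1r15a (0.63, block-adjusted p = 3.56e-11) and Ppp1r15b (0.44, 4.46e-09), and 10 of the 15 were not called. Eif2ak2, which encodes the kinase PKR, was higher in PPFP cells without pioglitazone (0.52 ± 0.11, 0.00653).

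Counts between the lines without pioglitazone stand against 22.0% of all genes called higher and 23.1% called lower. In this comparison 4 of the 11 other cytosolic synthetases and scaffold proteins were called higher and 0 lower, led by Kars, for lysine (0.56 ± 0.12, adjusted p = 0.00786), and 0 of 15 mitochondrial synthetases were higher and 4 lower, led by Cars2 (-0.79 ± 0.10, 0.000558), the latter near the share of all genes called lower. Of 10 folate and one-carbon enzymes tested, 4 were higher and 1 lower. Gldc, of the glycine cleavage system, had 0.201, 0.268 and 0.411 CPM in EV cells and 4.33, 5.18 and 3.59 CPM in PPFP cells (3.90 ± 0.29, 5.16e-05). Shmt1, the cytosolic counterpart of Shmt2, was 0.69 ± 0.11 without and 1.37 ± 0.11 with pioglitazone (0.00147 and 5.92e-05). Among 12 other amino acid transporters tested, 5 were higher and 4 lower, led by the glutamate carrier Slc1a2 at 4.25, 3.82 and 4.11 CPM in EV and 12.9, 18.1 and 14.99 CPM in PPFP cells (1.94 ± 0.16, 8.61e-05).

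**Figure D5:**
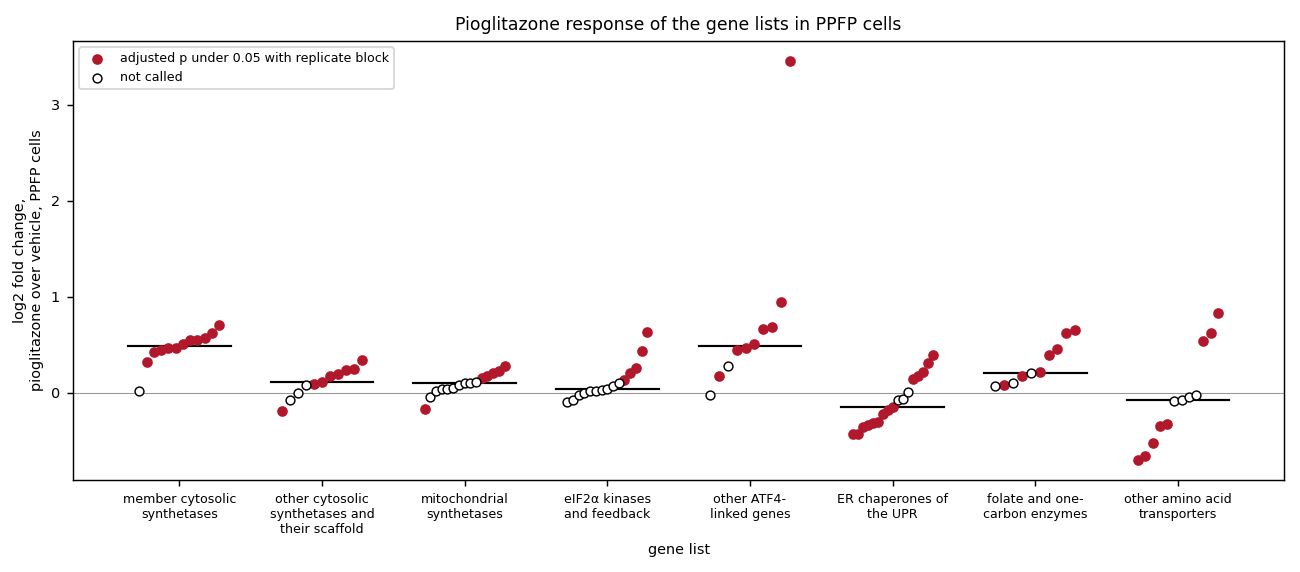
Log2 fold change with pioglitazone in PPFP cells for each gene of 8 lists (points, edgeR estimate; filled, adjusted p under 0.05 with the replicate block; horizontal lines, list medians). The member synthetases and the other ATF4-linked genes have medians of 0.49, the folate and one-carbon enzymes of 0.21, and the medians of the other 5 lists lie between -0.15 and 0.11.

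The letters of the response element before the start did not separate the members by their response to pioglitazone. The 11 genes with TGATGNAA before the start showed a median response of 0.55 (log2) in PPFP cells, and 10 were called higher with the block. For the 26 genes without these letters before the start the median was 0.54, with 23 called higher and 2 lower, against 27.7% of all genes called higher and 23.9% lower in that fit. These 26 include Cars (0.71) and Yars (0.62), in which the letters did not lie wholly before the start. This split covers the 250 bases before the start, and elements farther upstream were not searched.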

How the data were processed

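Total RNA of 12 cultures was sequenced by the authors as paired ends from libraries that do not mark strand. Per the labels and the study's methods, the authors aligned reads to the rat build rn4 with TopHat2 (2.0.11) and deposited whole read counts per gene symbol from HTSeq (0.6.1p1), in which reads that overlap several genes are not counted. The gene annotation used is not given in the sources used here. Without strand, a gene and an antisense partner cannot be told apart, and reads of near-identical copies can be lost. The deposited binding peaks were not used here.

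Each pairwise comparison was fitted on its 6 libraries with edgeR 4.0.16 (R 4.3.3, limma 3.58.1): genes with low counts were removed by filterByExpr, libraries were scaled by TMM, and the quasi-likelihood test was adjusted by Benjamini-Hochberg over all genes tested. The difference in response was fitted on all 12 libraries. A gene was called at an adjusted p under 0.05, and SE is that of the log2 fold change. Pair ratios were computed on CPM with nothing added. P-values measure the spread between these cultures. DESeq2 1.42.0, other scalings and filters, all libraries in 1 fit, edgeR's exact test and leaving out each replicate were alternatives.

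The replicate number was taken as a pairing within a line, since the deviations of same-numbered libraries from their group means correlated over genes in every pair (0.865, 0.655 and 0.641 in PPFP cells, 0.675, 0.846 and 0.886 in EV cells). In PPFP cells, libraries 2 and 3 correlated across numbers as well (0.706 and 0.576), and 0.706 is above both of their same-number values. There the correlations set replicate 1 apart but do not settle how libraries 2 and 3 pair. Counts are the deposited ones, with 0 columns left unused.

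The members and the further lists were chosen with earlier results of these data known. Members given in full were those called with a fold above 2 in a pairwise comparison or called in the difference in response, Atf4, Ddit3 and Asns, and the 2 with the smallest adjusted p of each role group between the lines without pioglitazone. Of each further list, at most 3 genes were named, by the smallest adjusted p in that comparison and by a fold above 2. All others named, such as Cebpb, Psat1, Chac1, Trib3, Nupr1, Ppp1r15a, Ppp1r15b, Herpud1 and the ends of ranges, were chosen after their values were seen. Figures were drawn with matplotlib 3.10.9.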

Additional observations from a re-analysis of the deposited data

Results flagged for a closer look

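The response to pioglitazone differed between the lines for Cbs, at a log2 difference of -0.83 (PPFP minus EV) by the interaction term of edgeR. With the replicate number as a block within each line, the interaction was called for 32 of the 41 genes, 30 of them with a higher response in PPFP cells. Of the groups of 3 libraries, none is large enough to test single libraries as outliers.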

How the results depend on the processing

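No call changed its direction under any alternative that was run. Between the lines, the count of 10 called genes without pioglitazone ranged from 8 to 14 and that of 12 with pioglitazone from 8 to 20 when settings were changed or single replicates were left out (20 without PPFP replicate 1, 8 without EV replicate 1 or PPFP replicate 3), while 33.2% to 49.5% and 41.3% to 56.3% of all genes were called (45.2% and 52.7% with every library). Cth without pioglitazone was also lost with library size alone (adjusted p = 0.0622), with 10 counts in every library (0.0541) and with all 12 libraries in 1 fit (0.0961), and Cbs and Mars with pioglitazone with library size alone, edgeR in each case. Between the lines, the replicate block gave 14 called genes without pioglitazone (7 higher, 7 lower, against 39.5% of all genes) and 15 with it (11 higher, 4 lower, against 44.2%). The study's methods describe independent experiments with the libraries of each on shared lanes, but do not tie the replicate numbers to them, and across lines same-numbered libraries correlated at -0.28, 0.43 and -0.41 without pioglitazone and at -0.27, 0.33 and -0.49 with it. Whether the numbers pair the lines is therefore unsettled.

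For pioglitazone in PPFP cells, 8 genes were called. The block gave 38, and 39, 36 and 37 with pair 1, 2 or 3 left out, against 51.6%, 47.6%, 46.0% and 41.3% of all genes. Summing the nearly alike libraries, an alternative chosen after seeing the data like those that leave out a pair, gave 5, against 6.98% of all genes (14.8% with every library). Leaving out single replicates without the block gave 5 to 9 called genes (6.24% to 17.0% of all genes), of which 1 to 2 exceeded 2-fold (3 with all libraries, and 5 in the block with pair 3 left out). In EV cells, 0 genes were called in every setting except the block with pair 2 (30) or pair 3 (1) left out. For the difference in response, 1 gene was called (2.64% of all genes), against 4 with DESeq2 (5.73%), 2 with no filter (1.89%), 3 with the replicate block across lines (3.22%) and 32 with the block within each line (33, 26 and 28 with PPFP pair 1, 2 or 3 left out, and 34, 28 and 27 with EV pair 1, 2 or 3 left out), against 34.3% of all genes with that block and 26.1% to 32.8% with a pair left out. Leaving out single replicates gave 0 to 3 (1.17% to 2.92% of all genes). A fold above 2 was reached by 0 genes there, by 1 with DESeq2, with no filter or with the replicate block across lines, by 2 with the block within each line and with its PPFP pair 1 or 3 or EV pair 1 or 2 left out (1 with EV pair 3 left out), and by 0 to 1 without single replicates. The cause of these differences was not tested. Low counts limit Slc38a1, with 9 to 19 counts per PPFP library without pioglitazone.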
